A study of Mus musculus with 2 samples.

Results

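The p53 gene Trp53 and 9 genes that p53 is known to activate directly (Mdm2, Cdkn1a, Ccng1, Trp53inp1, Bbc3, Bax, Sesn1, Phlda3 and Zmat3) were followed in 46C mouse embryonic stem cells (mESCs). They were taken from the expression table by symbol. All 10 were found among its 18888 genes, and all 10 passed the expression filter. The 46C line carries a green fluorescent reporter in the Sox1 gene. PB cells held the empty PiggyBac vector, a transposon plasmid that inserts into the genome. PB-TERRA cells held the same vector with telomeric repeats, from which polyadenylated TERRA, the RNA transcribed from telomeres, was expressed. Both lines were grown on gelatin, and the labels give passages 21 to 24 for both. Total RNA of each was sequenced as 1 library, so the spread between cultures is unknown and no difference has a replicate check. Whether a line was 1 clone or a pool of transfected cells is not given in the sources used here.

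p53 is a transcription factor that binds DNA as a tetramer and switches on genes for cell cycle arrest, DNA repair and cell death. Its amount is held down by Mdm2, a ubiquitin ligase that marks p53 for destruction and that is itself a p53 target, which closes a feedback loop. Damaged or uncapped telomeres are among the signals that activate p53, and mESCs are known for abundant p53 with a muted arrest response.

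p53 recognises an element made of paired decamers, whose consensus is its own reverse complement, so that 1 scan reads both strands. RefSeq promoter windows (250 bases before to 50 after the start site, build GRCm38.p6) were found for 8 of the 10 genes, in 12 windows; Trp53inp1 and Zmat3 had none. The authors' notes name mm9, another build, so these windows are used for their sequence only. The scan for the p53 response element consensus asked for 20 adjoining letters with the C and G of both decamer cores kept. With at most 1 mismatch, 2 of the 8 genes matched, against 0.0814% of 27025 genes with a window. These are the windows of Cdkn1a and Ccng1, shown because they hold the closest matches. Capitals mark the 20 letters of the match, its mismatch included.
Cdkn1a, upstream start site, chr17:29090729-29091028, + strand: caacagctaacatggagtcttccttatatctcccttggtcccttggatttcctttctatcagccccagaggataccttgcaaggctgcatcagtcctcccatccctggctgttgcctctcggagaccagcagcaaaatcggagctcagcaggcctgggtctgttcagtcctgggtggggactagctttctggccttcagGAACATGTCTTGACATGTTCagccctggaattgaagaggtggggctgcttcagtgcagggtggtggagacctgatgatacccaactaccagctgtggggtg
Ccng1, chr11:40755237-40755536, - strand: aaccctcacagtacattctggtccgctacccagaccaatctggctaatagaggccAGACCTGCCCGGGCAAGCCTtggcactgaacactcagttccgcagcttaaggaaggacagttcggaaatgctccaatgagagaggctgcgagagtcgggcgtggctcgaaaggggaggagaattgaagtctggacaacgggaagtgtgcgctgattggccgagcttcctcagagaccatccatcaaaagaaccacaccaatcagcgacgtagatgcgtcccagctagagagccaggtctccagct
The match in Cdkn1a starts 51 bases upstream of that start site, and the match in Ccng1 starts 195 bases upstream. With up to 3 mismatches, 5 of the 8 genes matched, against 1.63% of all genes. In a list of other p53 targets described below, 40 genes had a window. Of these, 0 matched with at most 1 mismatch and 5 with up to 3. The 3 remaining matches among the 8 genes are shown for comparison, each with 3 mismatches.
Bbc3, chr7:16309486-16309505, + strand: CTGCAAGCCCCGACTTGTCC
Sesn1, chr10:41887266-41887285, + strand: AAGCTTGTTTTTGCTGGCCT
Trp53, chr11:69580284-69580303, + strand: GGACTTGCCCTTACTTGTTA
No 20-letter match was found in the windows of Mdm2, Bax and Phlda3, which says only that these letters do not stand in these windows. The limit of 3 mismatches was chosen after the sequences had been seen. A match is a description of sequence, and binding of p53 was not measured.

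All 10 genes were higher in the PB-TERRA library than in the PB library, by small amounts. Trp53inp1 and Mdm2 differed most, with 29.9% and 27.1% more FPKM (fragment numbers corrected for the length of a gene and the depth of its library). Bax and Trp53 itself differed least in the values as deposited, with 2.45% and 4.93%. Both ends of this order change when trends with gene length and GC content are taken off. Among the 12263 genes with at least 1 FPKM in 1 library or both, 48.6% were higher in PB-TERRA, or 58.7% with both columns scaled to the same sum. The 10 genes were chosen with earlier results of these libraries known, so this count is a description.

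The columns of the table sum to 497560 FPKM in the PB library against 484632 in PB-TERRA. Steps between the low values of short genes correspond to about 24790000 reads in PB and 24850000 in PB-TERRA, so the libraries were of nearly equal depth. The stem cell markers Pou5f1, Sox2, Nanog, Esrrb, Zfp42, Klf4 and Tfcp2l1 all had at least 27.02 FPKM in both libraries. Of these 7, 5 were higher in PB-TERRA and 2 lower, from Nanog (log2 ratio -0.10) to Tfcp2l1 (0.33), and Zfp42 (-0.012) would turn above 0 with both columns scaled to the same sum. Of 7 fibroblast markers 4 were under 1 FPKM in both, and the 7 summed to 18.8 FPKM in the PB library against 22.9 in PB-TERRA, with 4 higher and 3 lower. The 5 primitive endoderm markers, all higher in PB-TERRA, summed to 8.95 and 12.3 FPKM. The 4 neural progenitor markers summed to 29.1 and 23.1 FPKM, nearly all of it Nes (27.30 and 20.93 FPKM), while Sox1 had 1.06 and 1.56 FPKM. The part of such cells in the p53 results was not tested. In bulk RNA, fewer cells that express a gene and less of its RNA per cell cannot be told apart.

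Trp53, which encodes p53, had the highest level of the 10 genes. It had 371.33 FPKM in PB (95% interval 366 to 377) and 389.62 in PB-TERRA (384 to 396). These intervals are exact Poisson intervals of the estimated reads and cover counting error only. The level stood at the 98.6th percentile of genes past the filter in PB and at the 98.7th in PB-TERRA. The log2 ratio of FPKM + 0.1, PB-TERRA over PB, was 0.07. Its exact binomial 95% interval, again of counting error only, was 0.04 to 0.10. Of the 50-base stretches in the annotated transcripts of Trp53, 3.95% also occur in other genes, foremost the pseudogene Trp53-ps, so a small part of its reads could have been counted elsewhere.

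Mdm2 had 46.03 FPKM in the PB library against 58.51 in PB-TERRA. The estimated reads were 3400 and 4333, and the log2 ratio was 0.35 (0.28 to 0.41). Its relative Mdm4 also restrains p53, without being a strong ligase itself. Mdm4 had 29.95 and 33.98 FPKM, a log2 ratio of 0.18 (0.13 to 0.23). The log2 ratio of Mdm2 was above that of Mdm4, and their counting intervals did not overlap.

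Trp53inp1 encodes a nuclear protein that aids p53 in the response to stress and takes part in autophagy. Its level was 27.77 FPKM in the PB library against 36.07 in PB-TERRA. With 3646 and 4747 reads, its log2 ratio of 0.38 (0.31 to 0.44) was the highest of the 10 genes, though not once the length trend was taken off. It stood at percentile 96.0 of the log2 ratios of all genes past the filter, and that of Mdm2 at percentile 95.3. The intervals of the log2 ratios of Trp53inp1 and Mdm2 overlapped, so their order is not resolved by the reads.

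Cdkn1a, Ccng1 and Phlda3 act on growth and survival signalling. Cdkn1a encodes p21, the inhibitor of cyclin-dependent kinases through which p53 arrests the cell cycle. It had 38.13 FPKM in the PB library against 43.96 in PB-TERRA, a log2 ratio of 0.20 (0.11 to 0.30). Ccng1 encodes cyclin G1, which recruits a phosphatase to Mdm2. Its 109.19 and 123.39 FPKM gave a log2 ratio of 0.18 (0.14 to 0.22). Phlda3 encodes a pleckstrin-domain protein that competes with the kinase Akt for the membrane. It had 25.26 and 28.81 FPKM, a log2 ratio of 0.19 (0.06 to 0.32). The PB-TERRA level of these genes was higher by at most 15.3%, the value of Cdkn1a. The annotation places AC167363.2 on the other strand across exons of Cdkn1a, 8.49% of whose stretches are shared, and the library kit named in the labels does not mark strand.

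Zmat3 encodes a zinc finger protein that binds RNA and takes part in splicing and RNA stability. Its level was 15.92 FPKM in the PB library against 18.20 in PB-TERRA. The log2 ratio was 0.19 (0.12 to 0.26), almost that of Cdkn1a at a lower level. Sesn1 encodes sestrin 1, which restrains mTORC1 signalling and oxidative stress. It had the lowest level of the 10, with 5.42 and 5.70 FPKM. With 372 and 392 reads its log2 ratio was 0.07, and the interval (-0.14 to 0.28) included 0, so a difference was not detectable at this depth.

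Bbc3 and Bax belong to the mitochondrial pathway of cell death. Bbc3 encodes PUMA, which frees the executioners of that pathway. It had 12.98 FPKM in the PB library against 14.32 in PB-TERRA, a log2 ratio of 0.14 (-0.02 to 0.30). Bax encodes such an executioner, which opens the outer mitochondrial membrane. It had 187.75 and 192.35 FPKM, a log2 ratio of 0.03 (-0.03 to 0.10). Both intervals included 0, although Bax had 4296 and 4412 reads, but this depended on the processing. Scaling both columns to the same sum put the interval of Bbc3 at 0.02 to 0.34 and that of Bax at 0.01 to 0.13. With the length and GC trend taken off, they were 0.05 to 0.38 and 0.08 to 0.20. Gm45808 is annotated on the same strand across exons of Bax and shares 8.51% of its stretches.

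**Figure D1:**
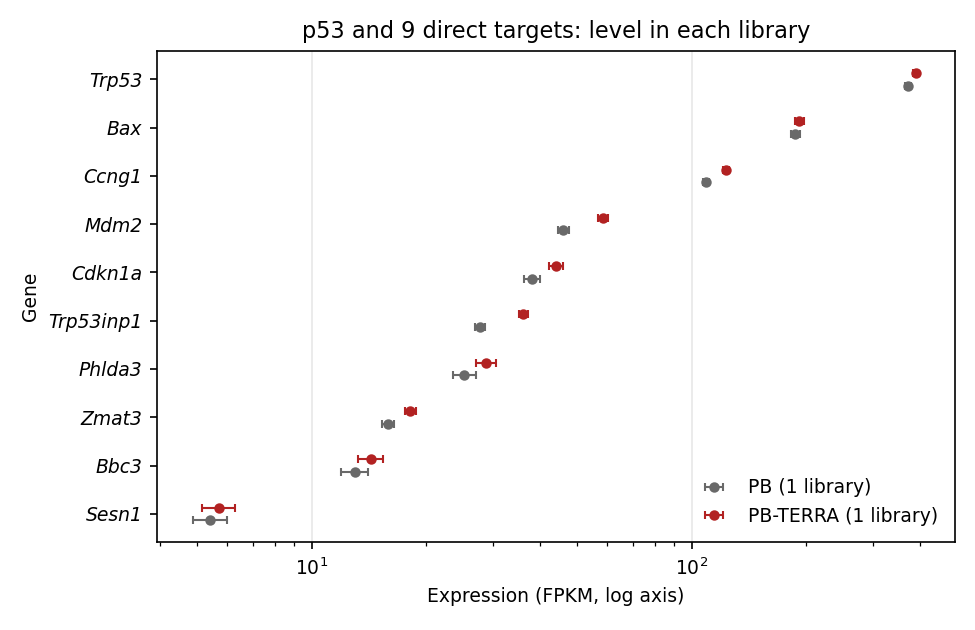
Level of each gene in FPKM (log axis) in the PB library (grey) and the PB-TERRA library (red). Bars are exact 95% Poisson intervals of the estimated reads. The red point lies to the right of the grey one for all 10 genes, and the order from Trp53 down to Sesn1 is the same in both libraries.

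The order of the levels was the same in both libraries, from Trp53 through Bax, Ccng1, Mdm2, Cdkn1a, Trp53inp1, Phlda3, Zmat3 and Bbc3 to Sesn1. In PB, the intervals of Trp53inp1 (26.9 to 28.7 FPKM) and Phlda3 (23.6 to 27.0 FPKM) overlapped, so the reads do not set the order of these neighbours. In PB-TERRA no pair of neighbours overlapped. From Sesn1 to Trp53 the PB level spanned 68.5-fold. The order of the log2 ratios was another. Trp53inp1 and Mdm2 came first, then Cdkn1a, Zmat3, Phlda3 and Ccng1 within 0.18 to 0.20, then Bbc3, Sesn1, Trp53 and Bax. Each neighbouring pair in that order had overlapping intervals.

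For 7 of the 10 genes the counting interval lay above 0, and for Bbc3, Bax and Sesn1 it included 0. Over all genes past the filter the interval lay above 0 for 18.2% and below 0 for 17.6%. Scaling both columns to the same sum left Sesn1 alone with an interval including 0, so that 9 of the 10 lay above it, against 25.1% of all genes. With the length trend taken off 8 lay above 0, against 18.0% of all genes, and with length and GC taken off 9 did, against 16.6%. An interval off 0 was thus common among all genes, and it compares these libraries, not the conditions. None of the 10 genes (0) reached an absolute log2 ratio of 1, which 0.913% of all genes did, or of 0.5, which 4.67% did. The median log2 ratio of the 10 genes was 0.18, and that of all genes past the filter was -0.0044, with the middle 50% between -0.11 and 0.10.

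**Figure D2:**
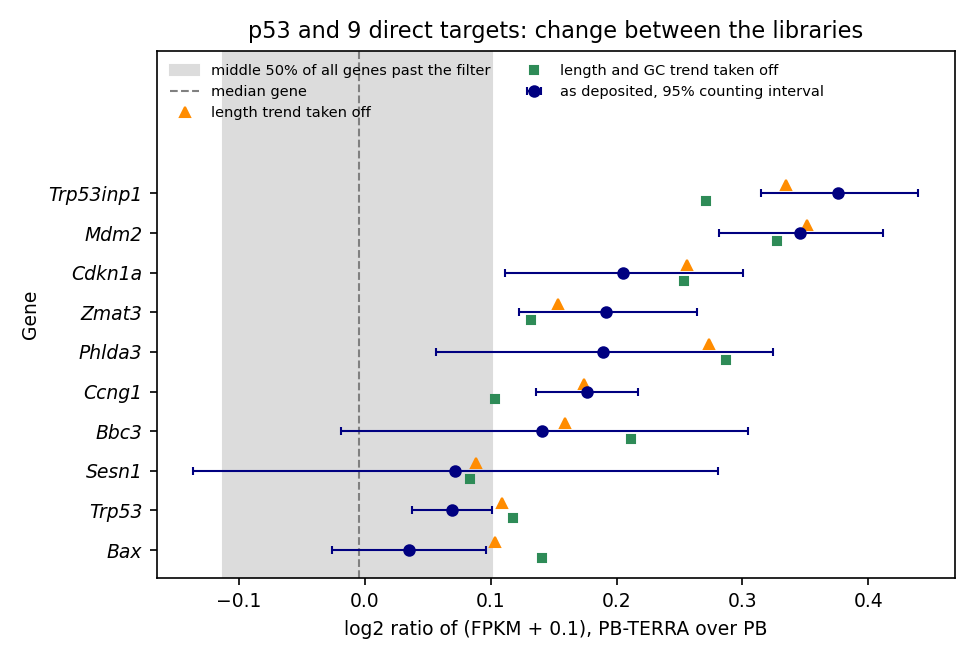
The log2 ratio of FPKM + 0.1, PB-TERRA over PB, of each gene (blue, with exact binomial 95% intervals of counting error), with the length trend taken off (triangles) and with the length and GC trend taken off (squares). The grey band holds the middle 50% of all genes past the filter and the dashed line is their median, -0.0044. All points lie to the right of that line.

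The log2 ratio between these libraries moved with gene length. In the decile of the shortest genes (up to 1054 bases) 37.6% were higher in PB-TERRA and the median was -0.06, and in the decile of the longest (from 6114 bases) 63.7% were higher and the median was 0.05. The median length of the 10 genes was 2431 bases, against 2801 for all genes past the filter. The 10 ran from Bax (1037 bases) to Zmat3 (7784 bases). With the median of genes of like length taken off, all 10 stayed above 0 and their median was 0.17. With the median of genes of like length and GC content taken off, all 10 again stayed above 0, and the median was 0.18. Single genes shifted more. Bax moved from 0.03 to 0.10 with length and 0.14 with length and GC, Trp53 from 0.07 to 0.11 and 0.12, and Ccng1 from 0.18 to 0.17 and 0.10. The order changed with these shifts. With length taken off Mdm2 came first at 0.35, before Trp53inp1 at 0.33, and Sesn1 came last at 0.09. With length and GC taken off Mdm2 (0.33) and Phlda3 (0.29) came before Trp53inp1 (0.27), and Ccng1 and Sesn1 (0.08) came last.

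**Figure D3:**
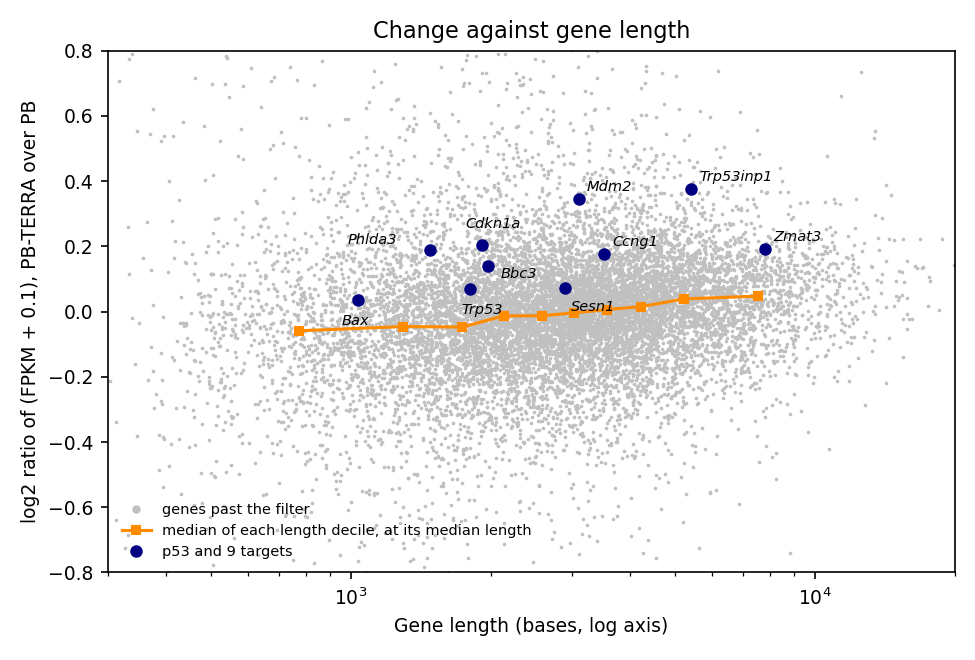
The log2 ratio of FPKM + 0.1, PB-TERRA over PB, against gene length (log axis). Grey dots are 12040 genes past the filter (223 lie outside the axes), orange squares the median of each length decile, and blue points the 10 genes. Every blue point lies above the orange line, which climbs from -0.06 to 0.05.

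A list of 49 further genes described as p53 targets was compared. It overlaps with none of the 10, and 47 of its genes passed the filter. Of these, 40 were higher in PB-TERRA and 7 lower (85.1% higher against 48.6% of all genes), with a median log2 ratio of 0.12. The counting interval lay above 0 for 22 and below 0 for 3, against 18.2% and 17.6% of all genes. With the length trend taken off 39 were above 0, and with length and GC taken off 38 of 45 were. Pmaip1, which encodes the death factor NOXA, had the highest ratio. It had 16.12 FPKM in the PB library against 23.10 in PB-TERRA, a log2 ratio of 0.52 (0.40 to 0.64), and was the only gene of the list at 0.5 or more, as were 2.3% of all genes. Perp, a membrane protein of desmosomes and p53-driven death, came next with 58.24 and 79.53 FPKM (log2 ratio 0.45, 0.38 to 0.52). The lowest were Ddit4 and Polh. Ddit4, an inhibitor of mTORC1 that also responds to low oxygen, had 38.61 and 28.73 FPKM (log2 ratio -0.43, -0.54 to -0.31). Polh, a DNA polymerase that copies past ultraviolet damage, had 5.71 and 4.50 FPKM (log2 ratio -0.34, -0.58 to -0.11).

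Some targets of this list, those with the clearest roles, were sorted by role after their values had been seen, so the counts by role are a description. Those given no role include lower genes, among them Ddit4, and higher ones, so the counts depend on this sorting. Over all genes past the filter 48.6% were higher, or 58.7% with both columns scaled to the same sum. All 8 cell death genes past the filter were higher in PB-TERRA, with a median of 0.21 and an interval above 0 for 6 of them, and Fas, with 12 and 10 reads, did not pass. All 7 cell cycle genes were higher as well, with a median of 0.17, and the interval lay above 0 for 4 and included 0 for 3. The 6 DNA repair genes divided into 3 higher and 3 lower, with a median of -0.0079, or 0.03 with both columns scaled to the same sum. Among these, Rrm2b, a ribonucleotide reductase subunit, had 2.22 and 2.99 FPKM (log2 ratio 0.41, 0.14 to 0.72). The damage sensors of nucleotide excision repair were not among the higher genes, Ddb2 with 5.05 and 4.37 FPKM (-0.20, -0.46 to 0.05) and Xpc with 8.33 and 8.01 FPKM (-0.06, -0.21 to 0.10). Of the 5 genes that feed back on p53, 4 were higher and 1 lower, with a median of 0.09, and the counting interval lay above 0 for 2 and included 0 for 3. Over all genes the interval lay above 0 for 18.2%. All 5 were higher with that scaling, 3 of 5 with the length trend taken off and 3 of 4 with length and GC taken off.

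Of 26 regulators of p53 listed, 25 passed the filter, 17 higher and 8 lower (68.0% higher against 48.6% of all genes). Their median log2 ratio was 0.03. This depended on the processing. With length and GC taken off 12 of 24 were above 0 and the median was 0.0082. With both columns scaled to the same sum 20 were higher (80.0% against 58.7% of all genes) and the median was 0.07. Sirt1, a deacetylase that acts on p53, had 38.09 and 44.74 FPKM (log2 ratio 0.23), followed by Mdm4. Trp53bp1, which binds damaged chromatin, had 16.23 and 14.41 FPKM (-0.17), and Ppp1r13l, an inhibitor of p53, had 9.71 and 8.84 FPKM (-0.13). Cdkn2a, whose ARF product blocks Mdm2, had 2.64 and 2.68 FPKM.

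Of the BCL2 family, the proteins that decide on mitochondrial cell death, 13 of 16 listed genes passed the filter. Bax and Bbc3 are among them, and Pmaip1 is shared with the target list. Without Bax and Bbc3, 8 were higher and 3 lower (72.7% higher against 48.6% of all genes). Their median log2 ratio was 0.04, which was 0.07 with the length trend taken off, 0.08 with length and GC taken off and 0.08 with both columns scaled to the same sum. After Pmaip1 the highest was Bcl2l1, which protects against cell death, with 28.38 and 32.36 FPKM (log2 ratio 0.19, 0.09 to 0.28). The lowest past the filter were Bmf, which promotes death, with 3.78 and 3.06 FPKM (-0.30, -0.51 to -0.10), and Bid, with 26.19 and 23.50 FPKM (-0.16, -0.28 to -0.03). Bcl2 itself, lower still in PB-TERRA, did not pass the filter and is given among the closing observations.

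Genes that p53 represses through p21 and the DREAM complex, a set of cell cycle repressors, divided much as the whole table did in the values as deposited. All 25 passed the filter, 12 were higher and 13 lower (48.0% higher against 48.6% of all genes), and the median log2 ratio was -0.0044. Scaling both columns to the same sum adds about 0.04 to every log2 ratio. With that scaling 20 were higher (80.0% against 58.7% of all genes) and the median was 0.03. The ends of the list lay outside the middle 50% of all genes. Bub1, a spindle checkpoint kinase, had 33.42 and 30.43 FPKM (-0.13, -0.20 to -0.07), and Cdk1, the mitotic kinase, had 51.87 and 47.89 FPKM (-0.11). Cdc25a, a phosphatase that activates cyclin-dependent kinases, had 33.53 and 37.42 FPKM (0.16, 0.09 to 0.23), and Cenpf, a kinetochore protein, had 18.74 and 21.25 FPKM (0.18, 0.13 to 0.24), close to the median of the 10 genes.

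Paralogs of the 10 genes went both ways, 8 higher and 5 lower among 13 past the filter (61.5% higher against 48.6% of all genes). Their median was 0.05, or 0.08 with length and GC taken off and 0.09 with both columns scaled to the same sum. Cdkn1c, which encodes the kinase inhibitor p57 and is imprinted, had 27.72 FPKM in the PB library against 46.06 in PB-TERRA (log2 ratio 0.73, 0.63 to 0.84), above that of Cdkn1a and with no overlap of the intervals. Trp73, a relative of p53 and also a gene of the target list, had 1.64 and 2.14 FPKM (0.36, 0.10 to 0.66). Ccng2, the relative of Ccng1, had 5.85 and 4.31 FPKM (-0.43, -0.68 to -0.21), and the intervals of these cyclins did not overlap. Zmat5 had 13.38 and 12.13 FPKM (-0.14, -0.38 to 0.10). The sestrins were near one another, Sesn2 with 40.40 and 41.76 FPKM (0.05) and Sesn3 with 6.59 and 6.97 FPKM (0.08).

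**Figure D4:**
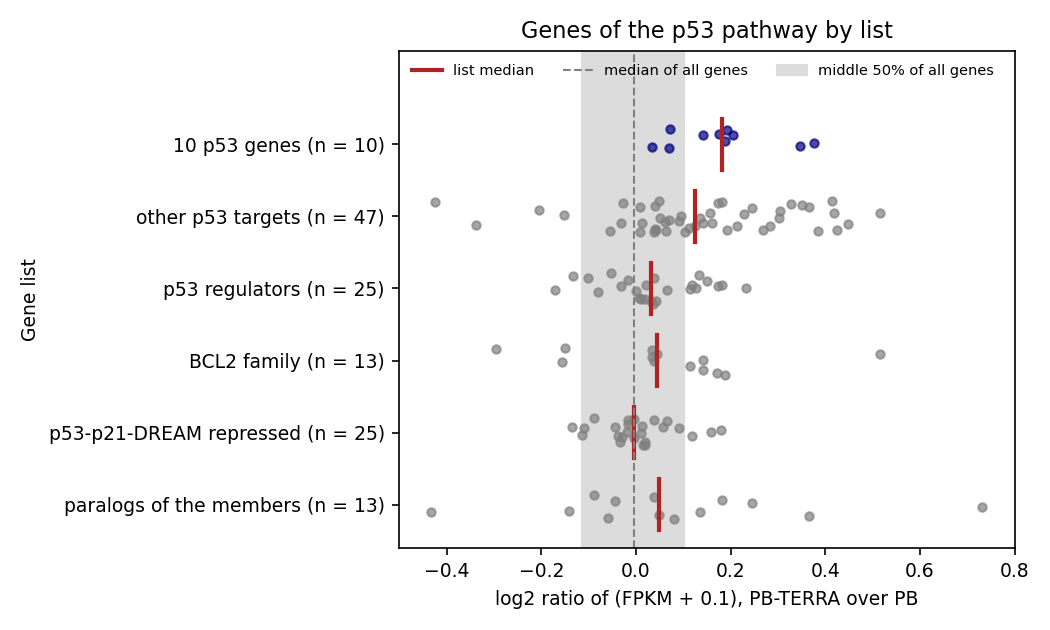
The log2 ratio of FPKM + 0.1, PB-TERRA over PB, of the genes past the filter in each list. Points are genes, red bars list medians, and the grey band and dashed line the middle 50% and the median of all genes. The 10 p53 genes have a median of 0.18 and the other targets of 0.12, while the genes repressed through p21 and DREAM centre on -0.0044 (0.03 with both columns scaled to the same sum).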

How the data were processed

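The PB library and the PB-TERRA library, 1 each, were both analysed. The table that the authors deposited gives 18888 genes, each with a gene length and an FPKM value per library, rounded to 2 decimals with a floor of 0.01. The header names no unit, and FPKM rests on the values and on Cufflinks, which the submitters' processing notes name with HISAT and mm9. The versions and the annotation are not given in the sources used here. Other columns hold the authors' own fold changes and p-values and were not used.

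Log2 ratios of FPKM + 0.1 were computed for genes with at least 1 FPKM in 1 library or both. With 1 library per condition no test was run. Read numbers were estimated from FPKM, gene length and library size. The library size and the bases taken off the length (114) were those at which low values of short genes came closest to whole reads. In PB 75.5% of 421 such values, and in PB-TERRA 78.7% of 447, then lay within 0.15 of a whole read. Intervals (95%, exact binomial for ratios and exact Poisson for levels) cover counting error only. On data simulated as Poisson counts of whole reads, the model that the intervals assume, those of the ratios covered the true ratio for 95.3% of 12207 genes. This checks the computation and not the coverage on the deposited values. Length and GC trends were taken off as bin medians (50 length bins, or 10 by 10 bins). GC content came from GENCODE M21 for 93.5% of genes, and sequences shared between genes from the same release.

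The members and lists were chosen with earlier results of these data known. Named were all 10 members and, per list, the highest 2 and lowest 2 log2 ratios past the filter. Fas, Rrm2b, Ddb2, Xpc, Cdkn2a, Sesn2, Sesn3 and the genes of the closing observations were named after their values were seen. Alternatives were the pseudocount, the filter, the scaling, the length trend, estimated reads and, added after the data were seen, the length and GC trend. Scripts ran under Python 3.11.15 with scipy 1.17.1, numpy 2.4.6, matplotlib 3.10.9 and pandas 2.3.3.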

Additional observations from a re-analysis of the deposited data

How the results depend on the processing

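No paired analysis was possible because each condition has 1 library. The 10 log2 ratios, the list medians and the counts of genes were recomputed under 9 alternatives, 189 values in all. A single gene was compared with its own counting interval, and a median or a count with a change of 1.5 times or of sign. By these measures 165 values stayed and 24 moved. All 10 genes remained above 0 under each of the 9 alternatives, but most of these could not have shown otherwise. A filter leaves a gene's own ratio as it was, and a pseudocount cannot turn its sign. The estimated reads come from the same FPKM values, and centring and equal column sums raised every ratio. Only taking off the length trend, or the length and GC trend, could have put a gene below 0. The 10 genes and the further targets kept their medians within 1.5 times throughout, and those of the other lists did not. Scaling both columns to the same sum moved Trp53 to 0.11 and the medians of the regulators to 0.069, the BCL2 family (Bax and Bbc3 included) to 0.083, the DREAM list to 0.034 and the paralogs to 0.086. Centring on the median gene put the DREAM median at 1.6e-05. Taking off the length trend moved Trp53 to 0.11, Bax to 0.10, the BCL2 median to 0.10 and the DREAM median to 0.0072. Taking off the length and GC trend, added after the data were seen, moved Trp53 to 0.12, Ccng1 to 0.10, Trp53inp1 to 0.27 and Bax to 0.14, and the medians of the regulators to 0.0082, the BCL2 family to 0.14, the DREAM list to -0.0066 and the paralogs to 0.075. Without a filter the median of the paralogs was 0.080, and with a mean of at least 5 FPKM that of the BCL2 family was 0.080. The cause of these moves was not tested. Over all genes past the filter, 112 reached an absolute log2 ratio of 1. Their number was 45 with a pseudocount of 1, 513 without a filter, and 17 with a mean of at least 5 FPKM. With the length and GC trend taken off it was 60, over the 11465 genes with a GC value, of which 67 reached it before the correction, so most of that fall came from the smaller set of genes. Depth limits Sesn1, Bbc3 and Phlda3 most, with 372, 599 and 857 reads in PB, and the lack of a replicate limits every value.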

Other observations

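The table also carries gene ontology (GO) terms. A biological process term that names p53 is carried by 90 genes, of which 80 passed the filter. In PB-TERRA 34 of them (42.5%, against 48.6% of all genes past the filter) were higher, 45 lower and 1 equal, with a median log2 ratio of -0.0075. Only Mdm2 of the 10 genes carries such a term, and 5 of the further targets do. With both columns scaled to the same sum 49 were higher and 31 lower (61.25% higher against 58.7% of all genes), with a median of 0.03. With the length trend taken off 43 of the 80 were above 0, with a median of 0.013, against 49.8% of all genes. With length and GC taken off 43 of 79 were, with a median of 0.016, against 49.7%. The difference from the lists of direct targets was not tested. The term for induction of programmed cell death is carried by 5 of the 10 genes (Trp53inp1, Zmat3, Phlda3, Bbc3 and Bax). Of all 114 genes past the filter with that term, 61 were higher and 53 lower (53.5% higher against 48.6% of all genes), with a median of 0.02.

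Genes with a match to the p53 response element in a promoter window were listed without regard to their expression. With at most 2 mismatches, and without the 10 genes, 41 passed the filter, with 28 higher in PB-TERRA, 13 lower and a median log2 ratio of 0.06. With up to 3 mismatches, 177 passed, 89 higher and 88 lower, with a median of 0.0054. The further p53 targets were not taken out. Of the 40 with a window, 3 matched with at most 2 mismatches and 5 with up to 3. Over all genes past the filter, 48.6% were higher.

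Some genes of the pathway lay below the filter. Bcl2, which protects against cell death, had 0.86 FPKM in the PB library against 0.44 in PB-TERRA, from 151 and 78 reads (log2 ratio -0.83, with 0.1 FPKM added, and interval of the reads -1.37 to -0.55). Trp53cor1, a long noncoding RNA next to Cdkn1a, had 17 and 25 reads, and Trp63, the other relative of p53, had 0 and 2 reads.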
